A study of Bos taurus with 6 samples.

Results

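The genes described here act in DNA replication and the cell cycle. A list of 38 such genes was searched for in the deposited table, and 6 of them had a name: E2F1, CCNE1, CCNE2, CDC45, RFC3 and RFC4, out of 20459 mRNAs with reads. The other 32, among them PCNA, MKI67, the MCM genes, CCND1 and CDK1, were not analysed here. A name was known only for mRNAs that the authors had called different between the groups, so the 6 genes were chosen by the measured difference between RSV and DMSO. Their group difference is therefore given as a description without a test. The list of names as used here is ordered by the authors' P-value, CDC45 stands nearest to its end, and no listed gene just outside it can be given. This copy held 2092 mRNAs, 1863 of them with a name, and was shorter than the authors' full list. A gene without a name here may therefore still have been called by the authors.

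The cells were primary myoblasts from the longissimus dorsi muscle of fetal cattle. In the RSV group (3 cultures) they received 20 μM resveratrol, dissolved in DMSO, in differentiation medium for 4 days, and in the DMSO group (3 cultures) the solvent alone in the same medium. The labels do not say whether the cultures came from different fetuses, so the spread between them may be partly technical. Resveratrol (RSV) is a plant polyphenol, and myoblasts are muscle precursors that leave the cell cycle before they fuse into fibers. The deposited table gives 1 mean of normalized reads (reads divided by a size factor that scales for sequencing depth) per group, and the whole reads of the single libraries were recovered from these means. The recovered libraries carry no sample number and are named here by falling size factor, as A, B and C for RSV and D, E and F for DMSO.

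Entry into S phase is governed by the E2F transcription factors, which are held in check by the retinoblastoma protein until cyclin-dependent kinases phosphorylate it. E2F1 activates genes for replication proteins and nucleotide supply, and it also activates the genes of cyclin E1 and cyclin E2, the partners of CDK2. At the origins, CDC45 joins the MCM and GINS proteins to form the active helicase, and the replication factor C complex, with the small subunits RFC3 and RFC4, loads the sliding clamp PCNA. In muscle cells these genes are known to be silenced as differentiation proceeds.

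Recovered reads summed to between 9668388 and 11624672 per library over 19953 mRNAs. Library C stood apart from the other RSV libraries. Its squared Pearson correlation with A and B, on log10(normalized reads + 1) across mRNAs, was 0.969 and 0.963, against 0.979 between A and B and 0.977 for each pair of DMSO libraries. With the DMSO libraries the value was 0.937 to 0.939 for C and 0.959 to 0.963 for A and B. Library C was thus also the RSV library farthest from DMSO. A linear model on log2 reads weighted by their precision (limma voom) was fitted to the 14521 mRNAs whose mean reached 10 normalized reads. At a Benjamini-Hochberg adjusted p under 0.05 it called 2441 of them higher in RSV and 2464 lower. The total of 4905 calls was 6094 without library C, 3422 without A, and between 2430 and 2669 without 1 of the DMSO libraries.

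All 6 genes were higher in RSV than in DMSO, and for each of them every RSV library lay above every DMSO library. Their log2 fold changes (log2FC, RSV over DMSO, from limma voom) ran from 0.68 for RFC3 to 1.89 for E2F1, with a median of 0.99, beside a median of 0.0072 over all 14521 mRNAs fitted. The same fit called 6 of 6 genes higher, a call it made for 16.8% of all mRNAs fitted, and 27.1% of all mRNAs had all RSV libraries above all DMSO libraries (53.1% had no overlap in either direction). Because the choice of these genes rests on the same contrast, neither count says anything beyond that choice. In bulk RNA a larger number of cells in S phase and more RNA per cell cannot be told apart.

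E2F1 (ENSBTAG00000003971), the transcription factor of the set, had 372.3, 465.2 and 237.2 normalized reads in libraries A, B and C. In the DMSO libraries D, E and F it had 93.4, 91.7 and 93.6 normalized reads. The DMSO libraries thus held nearly the same level, while the RSV libraries spread widely, with B highest and C lowest. On the log2 scale the standard deviation of E2F1 was 0.49 in RSV and 0.016 in DMSO (n = 3 each), where the medians over all mRNAs fitted were 0.146 and 0.0889. At 83 to 90 whole reads per DMSO library, counting noise alone would give a wider spread than 0.016. The closeness of these 3 DMSO values can therefore not be read as a small true spread. The log2FC of E2F1 was 1.89 (standard error 0.31), a fold of 3.71, and 2.16 without library C.

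**Figure D1:**
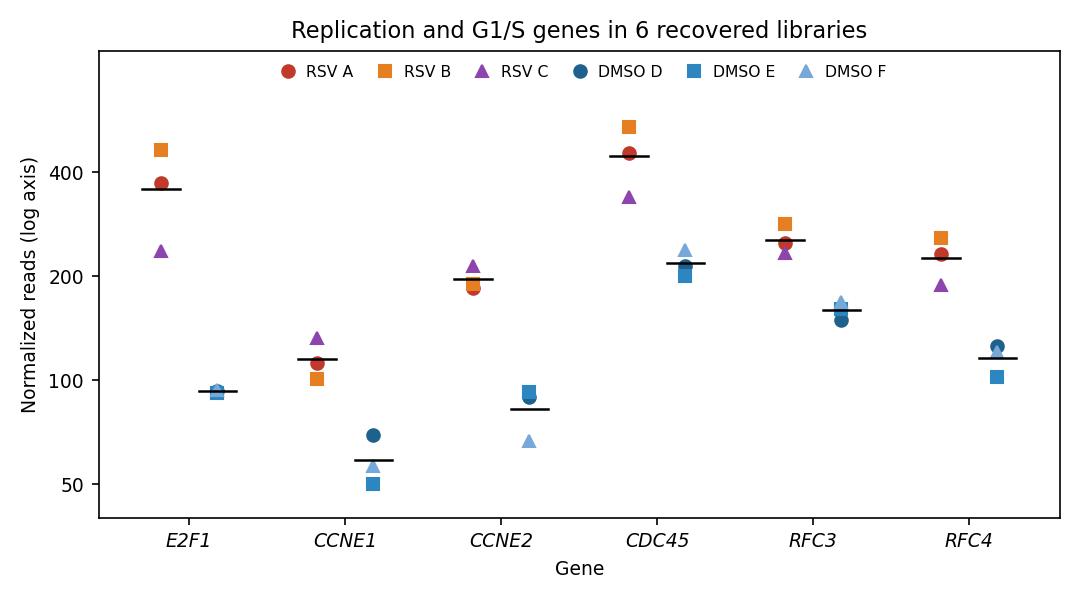
Normalized reads (log axis) of the 6 genes in each recovered library, with RSV libraries A, B and C on the left and DMSO libraries D, E and F on the right of each gene, and black lines at the group means. E2F1 ranges over 237.2 to 465.2 in RSV and 91.7 to 93.6 in DMSO, and library C (purple triangle) is lowest of the RSV libraries for E2F1, CDC45, RFC3 and RFC4 and highest for CCNE1 and CCNE2.

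The genes of both E-type cyclins, which activate CDK2 at the start of S phase, were higher in RSV as well. CCNE2 (ENSBTAG00000004906) had 184.8, 190.1 and 214.4 normalized reads in A, B and C against 89.2, 92.7 and 66.6 in D, E and F. For CCNE1 (ENSBTAG00000004735) the RSV libraries held 112.1, 100.6 and 132.8 normalized reads and the DMSO libraries 69.5, 50.02 and 56.4. In both cyclin genes library C was the highest RSV library, the opposite of its place for E2F1. C was highest for 65.8% of all mRNAs called higher in RSV, so this place is the usual one. The whole reads in A, B and C were 201, 206 and 226 for CCNE2 and 122, 109 and 140 for CCNE1. Differences of this size were not tested against counting noise. The log2FC was 1.24 (standard error 0.16) for CCNE2 and 0.97 (standard error 0.19) for CCNE1, or 1.179 and 0.86 without library C. CCNE1 had the fewest reads of the 6 genes, between 48 and 67 whole reads per DMSO library.

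CDC45 (ENSBTAG00000004286), the helicase cofactor, had 455.9, 542.7 and 338.7 normalized reads in A, B and C and 213.8, 201.1 and 239.2 in D, E and F. Its log2FC was 1.01 (standard error 0.19), and 1.19 without library C. The clamp loader subunit RFC4 (ENSBTAG00000014727) had 232.6, 257.5 and 188.8 normalized reads in RSV and 125.6, 102.1 and 120.7 in DMSO, with a log2FC of 0.96 (standard error 0.16). Its partner RFC3 (ENSBTAG00000010787) had the smallest difference of the set, with 250.0, 283.3 and 233.4 normalized reads in RSV, 149.4, 160.5 and 168.1 in DMSO and a log2FC of 0.68 (standard error 0.12). In all 3 genes the RSV libraries fell in the order B, A, C, as in E2F1. Without library C the log2FC was 1.08 for RFC4 and 0.74 for RFC3.

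The order of the RSV libraries among themselves was not part of the call that gave the genes a name. The list itself was drawn up with earlier results of these data known. In library C the level of E2F1 was 56.6% of the mean of A and B, and it was 67.8% for CDC45, 77.0% for RFC4 and 87.5% for RFC3. For the cyclins it was 124.9% (CCNE1) and 114.4% (CCNE2). On the log2 scale these ratios ran from −0.82 for E2F1 to 0.32 for CCNE1. Of all mRNAs fitted, 5.46% had a lower ratio than E2F1. This share was 9.36% for CDC45, 14.8% for RFC4, 26.4% for RFC3, 74.8% for CCNE2 and 84.2% for CCNE1. The middle of the distribution, from percentile 5 to percentile 95, reached from −0.86 to 0.68 with a median of −0.0024. Over the 2441 mRNAs called higher in RSV it reached from −0.415 to 0.827 with a median of 0.145. E2F1 and CDC45 (−0.56) lay below this second range, and RFC4 (−0.376), RFC3 and the cyclins lay inside it. Against the DMSO mean, E2F1 was 4.51-fold higher in A and B and 2.55-fold higher in C, so library C held E2F1 at 2.55-fold and CCNE2 at 2.59-fold, nearly alike, where A and B held them at 4.51-fold and 2.26-fold.

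A further 257 genes in 4 lists were looked up in the same way, namely other replication and S phase genes, regulators of G1 and S, genes of G2 and mitosis, and genes of DNA damage checkpoints and repair. Of these, 30 had a name and 28 had recovered reads. All 28 had groups without overlap, 25 of them higher and 3 lower in RSV, where the background was 27.1% and 26.0% of all mRNAs fitted. limma voom called the same counts, 25 higher and 3 lower, beside 16.8% and 17.0% of all mRNAs. The names come from called mRNAs alone, so these counts describe the named genes and not the lists, of which 227 genes were not analysed here.

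**Figure D2:**
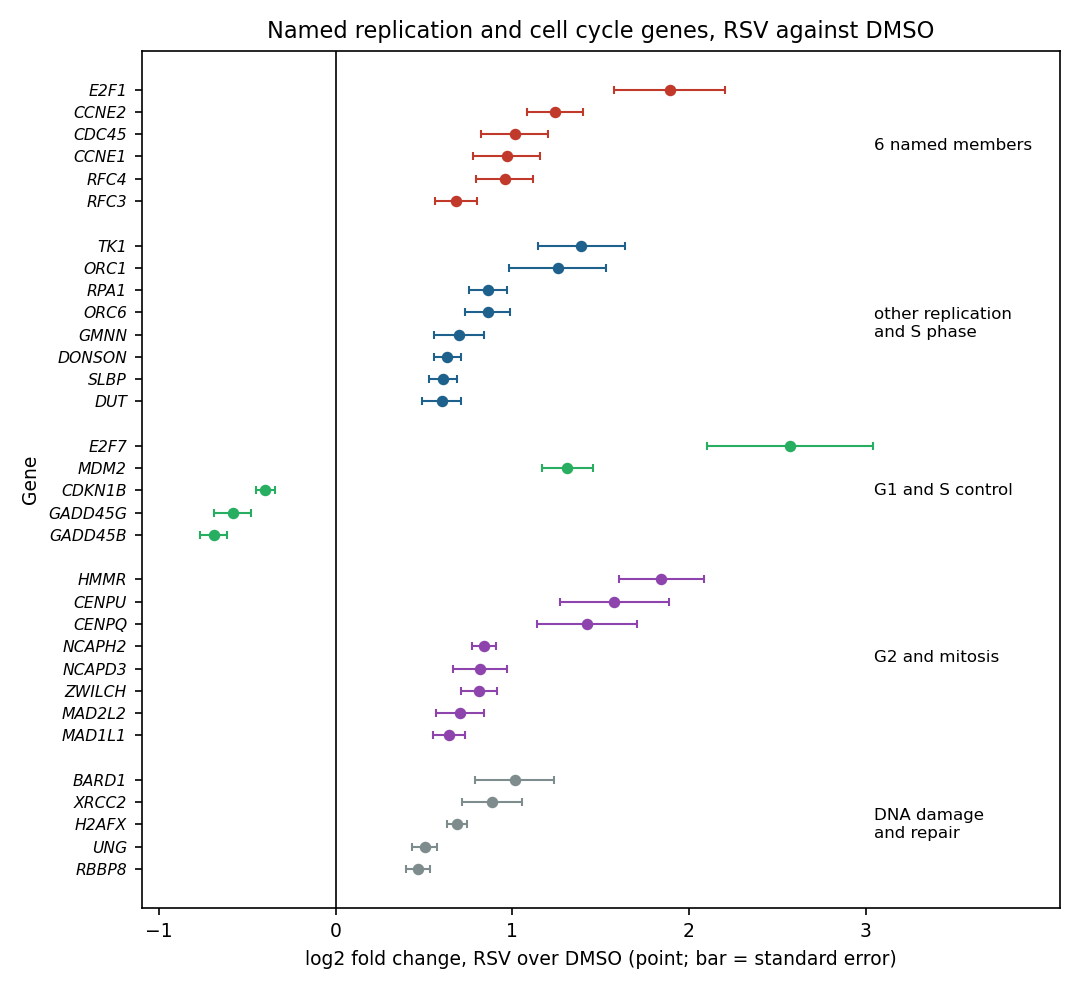
log2FC (RSV over DMSO) of 32 named replication and cell cycle genes with recovered reads, by list, with bars for the standard error from limma voom (3 libraries per group). Values lie between −0.69 (GADD45B) and 2.57 (E2F7), and the 3 genes below 0 are CDKN1B, GADD45G and GADD45B.

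Among replication and S phase genes, 8 of 55 were named and all 8 were higher in RSV, with a median log2FC of 0.78. TK1, the thymidine kinase of S phase, had 910.0, 1096 and 609.0 normalized reads in A, B and C and 304.0, 392.9 and 279.8 in D, E and F, a log2FC of 1.39 (standard error 0.24). ORC1, the large subunit of the origin recognition complex, had 126.8, 133.8 and 85.4 in RSV and 58.1, 52.1 and 33.8 in DMSO, a log2FC of 1.26 (standard error 0.27). Both genes shared the order B, A, C of E2F1. ORC6, another subunit of the complex, followed the cyclins instead, with 359.4, 325.8 and 428.8 normalized reads in A, B and C and 198.2 to 212.1 in DMSO. The single-strand binding protein gene RPA1, the geminin gene GMNN, which codes for an inhibitor of origin licensing, and DUT, SLBP and DONSON had log2FC values of 0.86, 0.70, 0.60, 0.61 and 0.63.

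Among the regulators of G1 and S, the E2F family member E2F7, a repressor of E2F target genes, had 69.9, 74.8 and 37.9 normalized reads in A, B and C and 10.4, 13.5 and 5.64 in D, E and F. Its log2FC of 2.57 (standard error 0.47) was the largest of all named genes of these lists, and it rests on 5 to 13 whole reads per DMSO library. MDM2, the ubiquitin ligase for p53, had 3930, 4231 and 2793 normalized reads in RSV and 1377 to 1495 in DMSO, a log2FC of 1.31 (standard error 0.14). Library C was again lowest of the RSV libraries for both.

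Inhibitors of cyclin E-CDK2 lay on both sides. CDKN1B, which codes for p27, was lower in RSV, with 950.4, 910.9 and 905.0 normalized reads in A, B and C and 1204, 1240 and 1203 in D, E and F, a log2FC of −0.40 (standard error 0.054). CDKN1A, which codes for p21, had 5722, 5667 and 5659 normalized reads in the DMSO libraries. Its RSV reads could not be recovered. No whole reads gave the RSV mean with fewer digits before the decimal point, so the mean was at least 22279 normalized reads. The other genes lower in RSV were those of the stress sensors GADD45B and GADD45G. GADD45B had 891.6, 756.8 and 867.1 normalized reads in A, B and C and 1296, 1419 and 1341 in D, E and F, a log2FC of −0.69 (standard error 0.076). For GADD45G the values were 731.7, 584.2 and 792.1 against 1018, 1060 and 1054, with a log2FC of −0.58 (standard error 0.10).

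In the list for G2 and mitosis 8 of 105 genes were named, and all 8 were higher in RSV with a median log2FC of 0.83. HMMR, a spindle-associated protein, had 836.4, 922.9 and 558.8 normalized reads in A, B and C and 244.9, 174.0 and 218.9 in D, E and F, a log2FC of 1.84 (standard error 0.24). The centromere protein gene CENPU had 161.8, 181.8 and 96.8 in RSV and 48.8, 47.9 and 45.1 in DMSO, a log2FC of 1.58 (standard error 0.31). CENPQ, whose product sits in the same centromere complex, had a log2FC of 1.42 (standard error 0.28), with the same order of RSV libraries as CENPU. The condensin subunits NCAPD3 and NCAPH2, the kinetochore protein ZWILCH, and MAD1L1 and MAD2L2 had log2FC values between 0.64 and 0.84.

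DNA damage checkpoint and repair genes were named in 7 of 52 cases, and the 7 were higher in RSV. BARD1, a ubiquitin ligase subunit that acts in DNA repair, had 115.8, 144.9 and 97.7 normalized reads in A, B and C and 72.6, 55.2 and 48.5 in D, E and F, a log2FC of 1.01 (standard error 0.22). XRCC2, which takes part in homologous recombination, had 135.1, 174.4 and 130.0 in RSV and 83.0, 78.2 and 74.5 in DMSO, a log2FC of 0.88 (standard error 0.17). Both genes shared the order B, A, C of E2F1. H2AFX, which codes for the histone variant phosphorylated at DNA breaks, was almost level across the RSV libraries, at 1431 to 1448 normalized reads against 865.4 to 935.8 in DMSO. On the log2 scale the standard deviation in RSV was 0.28 for BARD1 and 0.0085 for H2AFX. At 1517 to 1569 whole reads per RSV library, counting noise alone would give H2AFX a wider spread than that. The uracil glycosylase gene UNG and the end resection gene RBBP8 had log2FC values of 0.50 and 0.47.

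Counted over all lists, library C was the lowest RSV library for 22 of the 31 named replication and cell cycle genes that were higher in RSV (71.0%) and the highest for 5 of them (16.1%). Over all 2441 mRNAs called higher in RSV, C was lowest for 21.8% and highest for 65.8%, and over the 781 named mRNAs higher in RSV it was lowest for 21.9% and highest for 67.7%. Over all 14521 mRNAs fitted, whatever their difference, C was lowest for 42.0% and highest for 41.8%. The genes with C highest were CCNE1, CCNE2, ORC6, MAD2L2 and UNG. The 22 genes include E2F1, CDC45, RFC3, RFC4, TK1, ORC1, BARD1, HMMR and E2F7. Library totals, here the sums of the recovered reads alone, were also used in place of the size factors. With them C was lowest for 21 of the 34 genes in all 5 lists, against 23 with the size factors. These shares are descriptions without a test, since genes of 1 library are not independent replicates, and a single library decides them. The lists were also drawn up with earlier results of these data known.

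**Figure D3:**
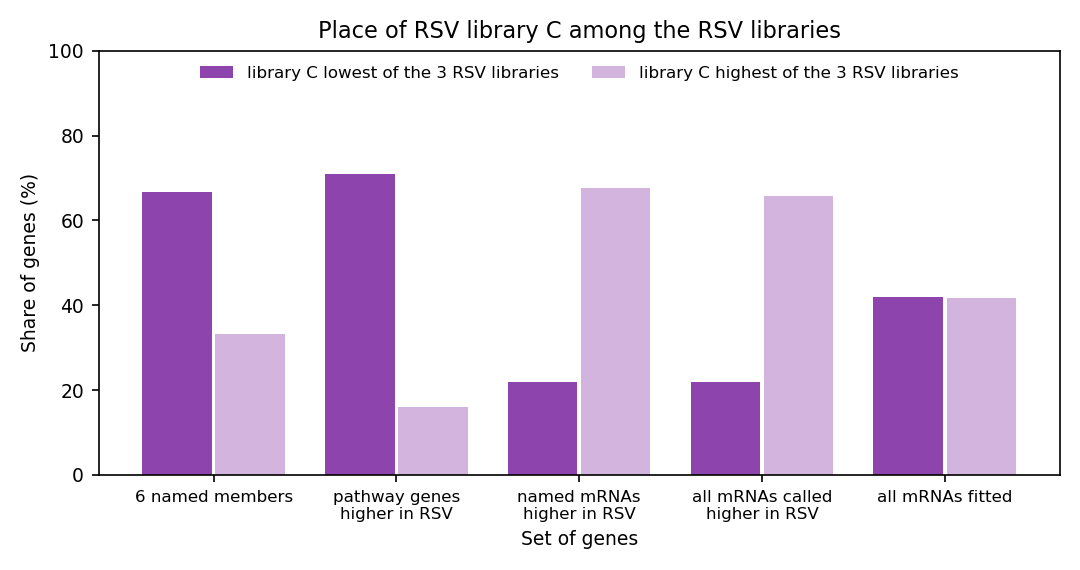
Share of genes (%) for which library C is the lowest (dark bars) or the highest (light bars) of the 3 RSV libraries, for the 6 named genes of the set (members), the 31 named pathway genes higher in RSV, and larger sets of mRNAs. C is lowest for 71.0% of the pathway genes, for 21.8% of all mRNAs called higher in RSV and for 42.0% of all mRNAs fitted.

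**Figure D4:**
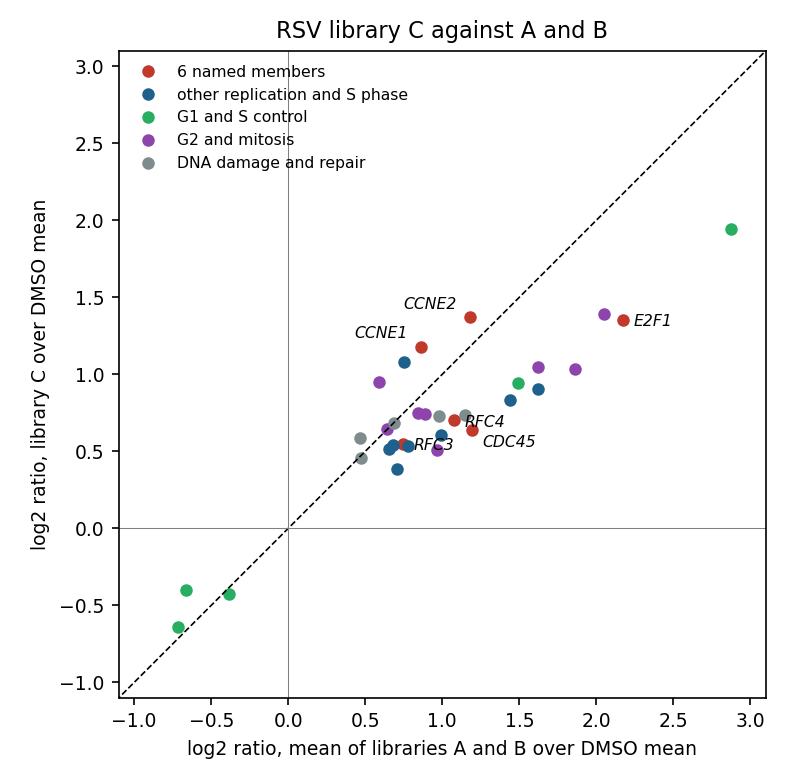
log2 ratio to the DMSO mean of library C (vertical axis) against that of the mean of libraries A and B (horizontal axis) for 32 named genes with recovered reads, with a dashed line where both are equal. E2F1 lies below the line at a fold of 4.51 in A and B and 2.55 in C, while CCNE1 and CCNE2 lie above it.

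Cell type markers were looked up as well. They too had a name only where the authors had called a difference, so their group differences say nothing beyond that choice. Of the muscle markers with recovered reads, limma voom called 4 higher and 1 lower, beside 16.8% and 17.0% of all mRNAs fitted. Of 29 muscle markers 6 were named and 5 had recovered reads, and the summed level of these 5 was 14314 to 14517 normalized reads in RSV and 9859 to 10585 in DMSO. TNNT1, TNNT2, TNNI1 and MYMK, the gene of the fusion factor myomaker, were higher in RSV, with log2FC values between 0.36 and 0.70, and the myosin light chain gene MYL1 was lower at −0.52. None of the 5 recovered muscle markers was at 0 in any library. In library C the summed level was 14517 normalized reads, close to A and B, but the single genes differed. MYMK was lowest in C, at 87.4% of the mean of A and B, near the 87.5% of RFC3. MYL1 was highest in C, at 123.8%. TNNT1, TNNT2 and TNNI1, which make up most of the sum, stood at 107.3%, 98.4% and 103.2%. Of 22 markers of other cell types, CD14, a marker of macrophages, had recovered reads, namely 31.3, 27.7 and 46.5 normalized reads in A, B and C and 8.34 to 10.4 in DMSO. The fibroblast markers PDGFRA, COL3A1 and DCN had a name, but their reads could not be recovered, so only the smallest mean that whole reads allow can be given for each group. It was 6903 normalized reads in RSV and 9252 in DMSO for PDGFRA, 31167 and 45154 for COL3A1, and 22591 and 34252 for DCN. For these 3 markers the smallest mean was lower in RSV, the opposite of CD14, but as both values are lower bounds the direction is not settled. For the muscle marker MYH3, also not recovered, the smallest means were 34968 in RSV and 21157 in DMSO. The part of cell types in the levels of the replication genes was not tested.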

How the data were processed

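RNA of 6 cultures was sequenced as paired-end mRNA libraries. The deposited table, made by the authors, holds group means of gene counts divided by a size factor, and comparison columns (log2 fold change, P-value, adjusted P-value) that were not used here. The authors compared the groups with DESeq. The mRNA aligner and annotation are not given in the sources used here, and Bowtie 0.12.9 and bosTau8 in the submitters' processing notes refer to the miRNA reads by the methods.

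mRNA means from 1 upward stand without a decimal point in the table. Each mean was written as a sum of whole reads over 3 size factors, fitted to the smallest means. The smallest placement of the point with such a sum was taken, as long as fewer than 0.01 combinations arose by chance, which gave unique reads for 19953 of 20459 mRNAs (97.5%). The other 506 were left out. Chance combinations grow with the mean, so highly expressed mRNAs such as CDKN1A, COL3A1 and DCN were among them. The shares over all mRNAs fitted therefore lack such mRNAs. Where all 3 reads are multiples of 10, as in about 1 of 1000 means, the placement may be 10-fold too low. Size factors were 1.09, 1.08 and 1.05 (A, B, C) and 0.964, 0.960 and 0.886 (D, E, F). Libraries of 1 group differed by more than counting noise (chi-square per mRNA from 2.28 to 18.8, where 1 is the value for counting noise alone).

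Names came from the authors' list of DE mRNAs (identifier and name alone), which in the copy used here named 1863 mRNAs, 1700 of them with recovered reads. Reads were fitted with limma voom (limma 3.58.1, R 4.3.3) where the mean reached 10 normalized reads, with size factors setting the library sizes. Scripts used Python 3.11.15, numpy 2.4.6, pandas 2.3.3, numba 0.67.0 and matplotlib 3.10.9, and both steps were tested on simulated data. The members and lists were chosen with earlier results of these data known. Genes given per library were all members, the 2 with the largest log2FC in each direction per list, CDKN1A, CDKN1B and E2F7, and other genes were chosen after their values were seen. With 3 libraries per group, the values carry the error of few replicates. Alternatives were other scalings, no minimum mean, limma trend, a minimum log2FC of 1, and each library left out. miRNAs were not analysed here, and 2 named genes are counted but not reported singly.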

Additional observations from a re-analysis of the deposited data

How the results depend on the processing

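The median log2FC of the 6 genes stayed between 0.98 and 1.03 with library totals (sums of recovered reads) or recomputed median-of-ratios size factors. The same range held with no minimum mean or the ratio of the group means. With each library left out it stayed between 0.91 and 1.13, 1.13 being the value without library C. That value moved by more than the standard deviation of the median level between the RSV libraries (0.136), the others by less. For the 34 named genes, 372 of 374 values under the alternatives moved by less than the spread between replicates. CDKN1B (−0.36) and H2AFX (0.73) moved further with library totals. Leaving out 1 library of 3 can hardly move the value of a single gene beyond this spread, so for those alternatives the count carries no information. None of the 374 values changed sign, which groups without overlap in all 34 genes made nearly certain. The count of mRNAs called was 994 (558 higher, 436 lower) at a minimum absolute log2FC of 1. It ranged from 2430 to 6094 with 1 library left out, with 1156 to 3161 higher and 1274 to 2933 lower. The lower counts came from leaving out a DMSO library, the highest from leaving out C. With library totals, the genes of the 5 lists that were lowest in library B rose from 5 to 8. No paired analysis was possible because the deposited columns are group means and the recovered libraries carry no replicate number.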

Other observations

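The named genes with the pattern most like E2F1 over the 6 libraries, by Euclidean distance of z-scored log2(normalized reads + 1) among 1694 named mRNAs, were FAM198B, ANKRD44 and DCLRE1B, at distances of 0.122, 0.127 and 0.127. DCLRE1B, which codes for a nuclease acting at telomeres and in crosslink repair, had 584.6, 648.8 and 434.5 normalized reads in A, B and C and 224.1, 214.7 and 212.1 in D, E and F. ANKRD44 had the same shape with a smaller difference, 669.2, 715.3 and 598.6 in RSV and 472.7 to 486.7 in DMSO.

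For CCNE2 the nearest genes were DBNDD1, HEY2 and AGBL5, at distances of 0.112, 0.200 and 0.204. HEY2, a transcriptional repressor downstream of Notch, had 94.7, 96.9 and 115.7 normalized reads in A, B and C and 45.7, 53.1 and 36.1 in D, E and F. In each of these 3 genes library C was the highest RSV library and F the lowest DMSO library, as in CCNE2. The shared order follows from the choice by distance, here and for the genes nearest to E2F1. These distances are given without a test.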
